A study of Saccharomyces cerevisiae with 6 samples.

Results

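Strain 62B, one of 3 lineages of the yeast Saccharomyces cerevisiae that had been adapted to growth on galactose, was compared with its sister strains 62A and 62C after all of them were grown on glucose. The comparison took the 2 arrays of 62B against the single array of 62A and the single array of 62C, which makes 4 of the 6 arrays of the series. It covered all 5449 genes that a probe set of the Affymetrix Yeast Genome 2.0 array represented. All 3 strains were derived from CEN.PK113-7D, a haploid laboratory strain, by adaptive evolution on galactose, and no further genotype is labelled. Each was grown in minimal medium with glucose in a fermenter held at pH 5.0, and total RNA was taken in mid exponential phase. The other 2 arrays carry RNA of unevolved CEN.PK113-7D grown in the same way. They entered no test here and are given only to show where the starting strain lay. The question the comparison answers is in which genes 62B differs from both other strains with the same history of selection.

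Several systems of yeast physiology recur below. Yeast that ferments glucose uses low-affinity hexose transporters and keeps other sugar uptake genes repressed. When the Ras and protein kinase A pathway is less active, or when nutrients run short, cells raise a common set of stress genes and store the carbohydrates glycogen and trehalose. Ergosterol, the sterol of fungal membranes, is made from acetyl-CoA by a long pathway, first through mevalonate to squalene and then by oxygen-dependent steps. Haploid cells of mating type a make a-factor, sense alpha-factor through a receptor and a G protein, and respond by arresting and preparing to fuse.

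Each strain is 1 lineage, and the labels do not say whether the 2 arrays of 62B came from separate cultures. P-values therefore measure the spread between these arrays, which for 62B may be technical. For 62A and 62C the spread is the difference between the strains. The 62B arrays were close to each other. The SD over genes of their log2 difference was 0.0695, and 0 genes differed by more than 2-fold. Between 62A and 62C this SD was 0.137, with 1 gene past 2-fold. Between an array of 62B and that of 62A or 62C it ran from 0.214 to 0.303, with 35 to 73 genes past 2-fold. Median log2 values lay between 7.30 and 7.34 on the 4 arrays. The log2 difference between 3' and 5' probe sets of 8 control genes, a measure of RNA integrity, came to 2.01 and 2.05 for the pair of 62B arrays, to 1.89 for 62A and to 1.73 for 62C. It was thus highest in 62B and lowest in 62C. RNA integrity and strain cannot be told apart in any result below.

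In 62B, 677 of 5449 genes (12.4%) were higher than in 62A and 62C and 439 (8.06%) were lower, by limma's moderated test with a Benjamini-Hochberg adjusted p under 0.05. These shares are the background for every count of list members given below. Most differences were small. The median log2 difference of the genes called higher was 0.28 and that of the genes called lower was −0.34, against 0.02 over all genes. At least 2-fold differences were found for 10 higher genes (0.184% of those tested) and 33 lower genes (0.606%). Both 62B arrays lay above both other arrays in 2223 genes (40.8%) and below both in 1529 (28.1%), and the groups did not overlap in any of the 677 or the 439. The excess of higher over lower calls depended on scaling. Of all calls 60.7% were higher, against 52.2% after quantile normalization of the 4 arrays and 48.5% with each array centred on its median. Calls were spread over the range of expression levels, from 18.6% of the 1363 genes with the lowest mean levels to 22.8% of the 1362 with the highest, as the plot of difference against level shows.

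**Figure D1:**
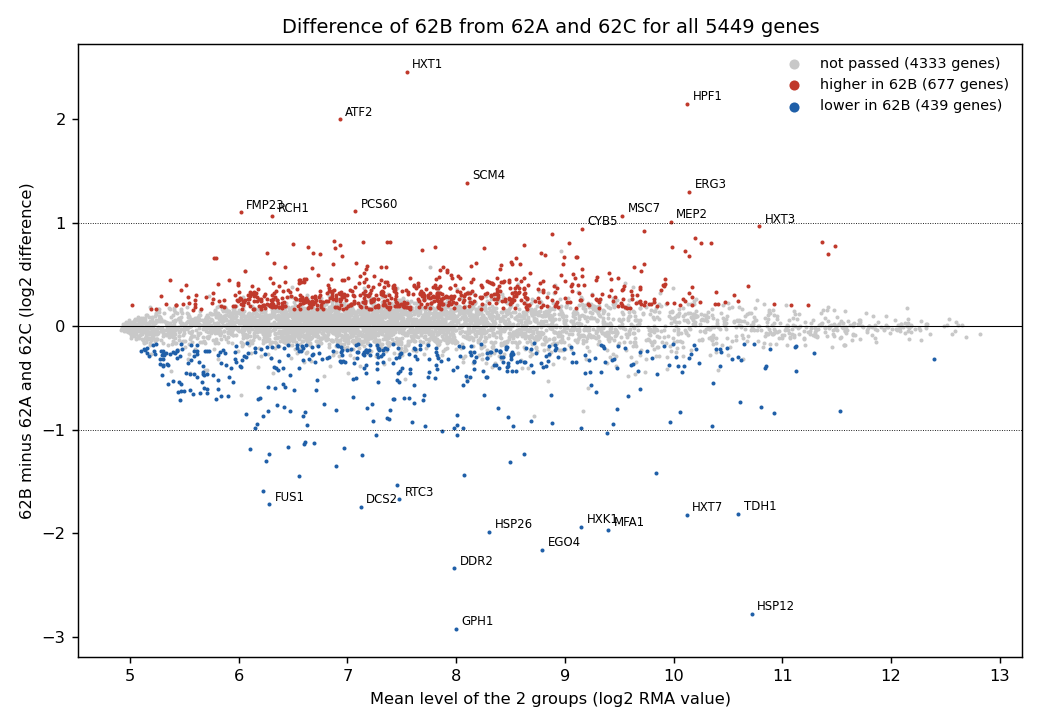
Log2 difference of 62B (mean of 2 arrays) from 62A and 62C (mean of 1 array each) for each of 5449 genes, against the mean log2 level of both groups. Red points passed limma's test upward (677 genes), blue points downward (439 genes) and grey points did not pass, dotted lines mark 2-fold, and the 24 genes with the largest differences are named; the lower side holds the larger differences, with 33 genes past 2-fold against 10.

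The number of calls rested on the closeness of the 62B pair. Without the first 62B array 23 genes were higher (0.422%) and 28 lower (0.514%), and without the second 28 were higher (0.514%) and 34 lower (0.624%). In both cases the spread is that between 62A and 62C alone, with 1 residual degree of freedom. Without 62A, 1478 genes were higher (27.1%) and 1000 lower (18.4%), and without 62C these counts were 901 (16.5%) and 592 (10.9%). Treating each strain as 1 sample left 25 higher and 26 lower. Of the sister strains, 62A often lay nearer to 62B. Its level was between those of 62B and 62C in 485 of the 677 higher genes and in 346 of the 439 lower genes, compared with 3074 of all 5449 genes.

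The 3 genes with the largest upward differences were HXT1, HPF1 and ATF2. HXT1, which encodes a low-affinity glucose transporter induced by high glucose, read 8.87 and 8.68 in 62B, against 6.60 in 62A and 6.04 in 62C (log2 RMA values). Both 62B arrays were thus far above the others. The difference was 2.45 ± 0.18 (log2, SE, 2 arrays against 2), or 5.48-fold (limma adjusted p = 0.0018). HPF1, a cell wall mannoprotein gene, read 11.27 and 11.13 in 62B against 9.25 in 62A and 8.85 in 62C. It was 4.43-fold higher (2.15 ± 0.13, limma adjusted p = 0.0012), and the reference arrays, at 8.32 and 8.28, lay below all evolved strains. ATF2 encodes an alcohol acetyltransferase that also acetylates sterols. Its levels were 7.96 and 7.90 in 62B, against 6.01 in 62A and 5.85 in 62C, with a difference of 2.00 ± 0.07 (limma adjusted p = 0.00035). The reference, at 6.58 and 6.70, lay between the groups but nearer to 62A and 62C.

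The other upward genes of the leading 12 had differences from 0.94 to 1.39. SCM4, a gene of a mitochondrial outer membrane protein, was higher by 1.39 ± 0.07, and PCS60, which encodes a peroxisomal enzyme, by 1.11 ± 0.05. FMP23, whose product was found in mitochondria, was higher by 1.10 ± 0.06, MSC7 by 1.06 ± 0.05 and RCH1, a regulator of calcium entry, by 1.06 ± 0.05. In all 5 genes the 62B arrays differed from each other by far less than from 62A and 62C. For RCH1 they read 6.84 and 6.83, while the other 4 arrays of the series lay between 5.74 and 5.85. MEP2, a high-affinity ammonium permease, read 10.55 and 10.40 in 62B, against 9.77 in 62A and 9.17 in 62C (1.00 ± 0.19, limma adjusted p = 0.0212). Its spread came from the sister strains, 62A being close to the reference (9.80 and 9.70) and 62C below it. HXT3, another low-affinity glucose transporter, and CYB5, the cytochrome b5 that passes electrons to sterol and lipid desaturases, were higher by 0.96 ± 0.18 and 0.94 ± 0.12. ERG3 is described with its pathway.

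The 3 genes with the largest downward differences were GPH1, HSP12 and DDR2. GPH1, which encodes glycogen phosphorylase, read 6.40 and 6.68 in 62B against 9.08 in 62A and 9.84 in 62C. It was 7.58-fold lower (−2.92 ± 0.24, limma adjusted p = 0.0025). HSP12, a small membrane-protecting stress protein gene, read 9.06 and 9.60 in 62B, against 11.93 in 62A and 12.29 in 62C, a 6.85-fold difference (−2.78 ± 0.20, limma adjusted p = 0.0016). In both genes the 62B arrays lay above the reference arrays, but nearer to them than to 62A. The reference arrays were at 6.03 and 5.66 for GPH1 and 8.70 and 8.32 for HSP12. DDR2, a gene induced by DNA damage and other stresses, was lower, at −2.33 ± 0.29, EGO4 at −2.15 ± 0.25 and HSP26, a small heat shock chaperone gene, at −1.99 ± 0.31. Their larger errors came from 62A and 62C, which differed more from each other than the 62B arrays did. DCS2 and RTC3 were lower, at −1.74 ± 0.20 and −1.67 ± 0.20. HXK1, HXT7, TDH1, MFA1 and FUS1 complete the 12 and are described with their groups.

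**Figure D2:**
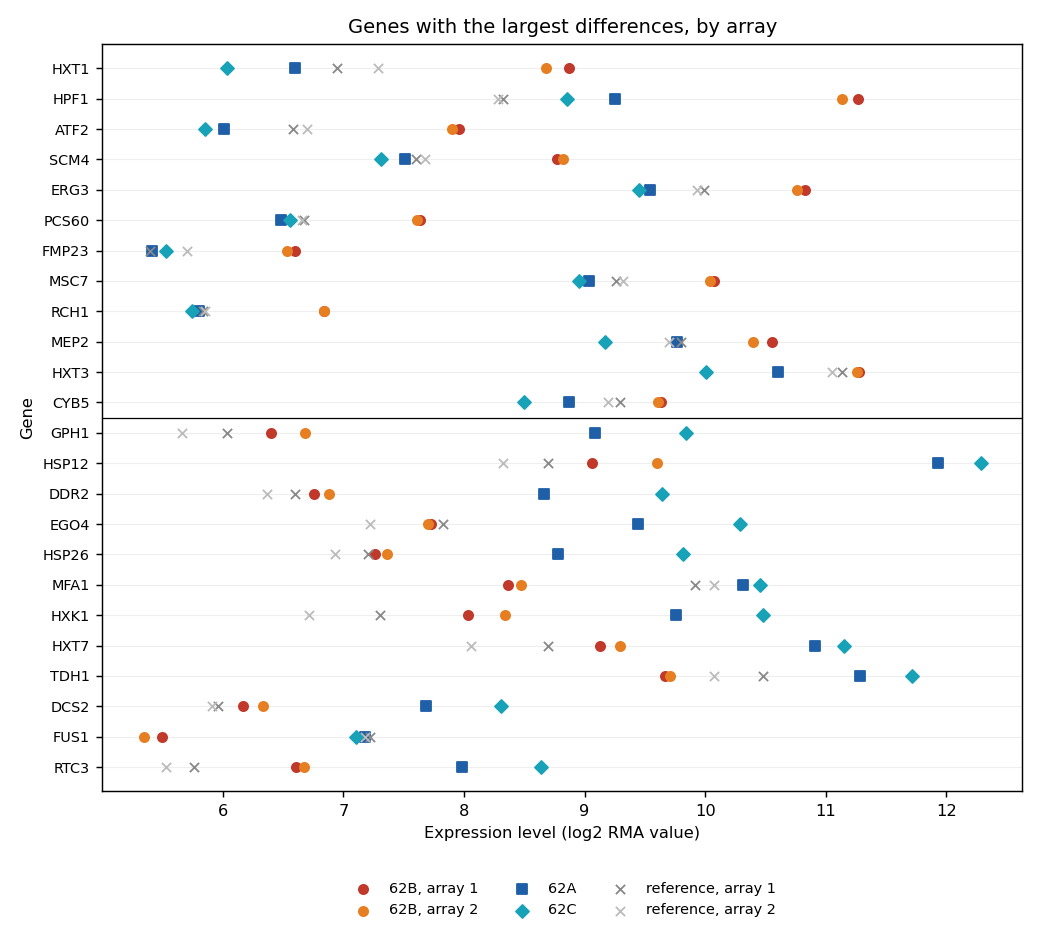
Log2 RMA level of the 12 genes with the largest upward (above the line) and downward (below the line) differences, 1 point per array: circles for the 2 arrays of 62B, a square for 62A, a diamond for 62C and crosses for the 2 reference arrays. The genes were chosen so that both 62B circles lie on the same side of the square and the diamond. In GPH1, HSP12, DDR2, HSP26, HXK1 and HXT7 the 62B circles lie nearer to the reference crosses than to 62A and 62C.

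Ergosterol genes were higher in 62B along nearly the whole pathway. Of 27 measured genes in the mevalonate and sterol lists, 22 were higher and 0 lower, with a median log2 difference of 0.57 against 0.02 over all genes, of which 12.4% were higher, and 26 of the 27 differences were above 0. In the mevalonate list 6 of 9 were higher (median 0.37) and in the list from squalene onward 16 of 18 (median 0.71). The acetoacetyl-CoA thiolase ERG10, the first step, was higher by 0.57 ± 0.06. The HMG-CoA synthase ERG13 followed with 0.46 ± 0.05. HMG1, the main HMG-CoA reductase that sets the rate of the route, read 10.00 and 9.94 in 62B, against 9.54 in 62A and 9.33 in 62C (0.53 ± 0.08, limma adjusted p = 0.0111). MVD1, the last of the mevalonate enzymes proper, was higher by 0.60 ± 0.06. ERG12, IDI1 and ERG20 were the 3 genes of the list that did not pass.

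From squalene on, the differences were larger. The 3 enzymes from squalene synthase to lanosterol, ERG9, ERG1 and ERG7, were higher by 0.49, 0.67 and 0.67. All 7 genes between lanosterol and zymosterol were higher, from 0.40 for ERG27 to 0.91 for ERG24, the C-14 reductase. ERG11, the lanosterol demethylase that azole drugs inhibit, read 11.94 and 11.81 in 62B, against 11.22 in 62A and 10.97 in 62C, a 1.72-fold difference (0.78 ± 0.09, limma adjusted p = 0.0063). NCP1, the reductase that supplies it with electrons, was higher by 0.81 ± 0.06, and ERG28, a scaffold of the demethylating enzymes, by 0.85 ± 0.04. All 5 enzymes from zymosterol to ergosterol were higher as well, with differences of 0.73 to 1.29. ERG3, the C-5 desaturase, read 10.83 and 10.76 in 62B against 9.54 in 62A and 9.45 in 62C, with the reference between them at 9.99 and 9.93. It was 2.45-fold higher (1.29 ± 0.05, limma adjusted p = 0.00046). ERG5, the C-22 desaturase, read 10.41 and 10.33 in 62B, against 9.66 in 62A and 9.56 in 62C. That is a 1.69-fold difference (0.76 ± 0.06, limma adjusted p = 0.0018), and the reference levels of 9.78 and 9.71 were close to those of 62A. Of the regulators, UPC2, a transcription factor that activates the pathway when sterol is low, was higher by 0.32 ± 0.04. Its relative ECM22 had a difference of −0.14 and did not pass.

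The 22 higher ergosterol genes did not all stand in the same relation to the reference strain. The mean of the reference lay between the groups in 20 of them, nearer to 62B in 14 and nearer to 62A and 62C in 6, beyond 62B in 1 (ERG10) and beyond 62A and 62C in 1 (HMG2, the second HMG-CoA reductase). In most of them the mean of 62B thus lay above, and that of the sister strains below, the unevolved strain. Without the first or the second 62B array 6 or 9 of the 27 genes were higher by the test (22 each at an unadjusted p under 0.05), while without 62A 24 were higher and 1 lower, and without 62C 23 were higher. Among hypoxic genes, which respond to low oxygen or low sterol, some were higher, but the list median was that of all genes. Its 11 cell wall mannoprotein genes had 1 higher and 0 lower (median −0.01). Of all 24 hypoxic and anaerobic genes 6 were higher and 1 lower (median 0.02), against 12.4% and 8.06% over all genes. Those higher included MGA2, a membrane-bound activator of the fatty acid desaturase gene (0.57 ± 0.05), the mannoprotein gene TIR3 (0.55 ± 0.09), the heme pathway oxidase HEM13 (0.43 ± 0.07) and the ADP/ATP carrier AAC3 (0.42 ± 0.08). The lower one was CYC7, the minor cytochrome c (−1.31 ± 0.12). Of the 25 iron regulon genes 0 passed in limma (2 above and 6 below 0 at an unadjusted p under 0.05), with FET3 having the largest difference at −0.82.

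**Figure D3:**
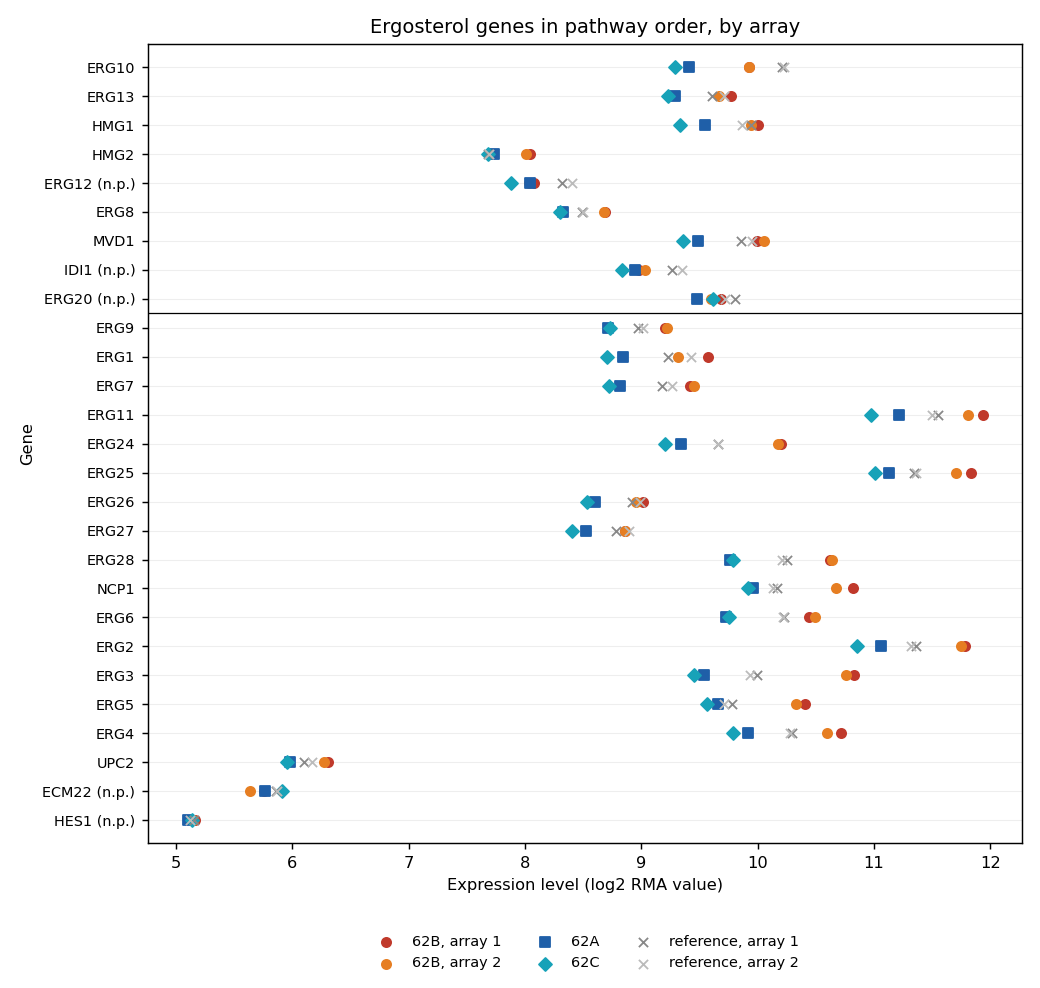
Log2 RMA level of the 27 ergosterol genes in pathway order, mevalonate route above the line and squalene to ergosterol with 3 regulators below it, 1 point per array. Genes marked n.p. did not pass limma's test; in the 22 others both 62B circles lie to the right of 62A (square) and 62C (diamond), and the reference crosses mostly lie between.

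Hexose transporter genes differed in both directions. The low-affinity genes HXT1 and HXT3 were higher in 62B, and HXT2, HXT4, HXT7 and HXT9 were lower, out of 12 measured (median −0.03). Over all genes 12.4% were higher and 8.06% lower. HXT3 read 11.28 and 11.26 in 62B, against 10.60 in 62A and 10.01 in 62C (limma adjusted p = 0.0213). HXT7, a high-affinity transporter repressed by ample glucose, read 9.13 and 9.29 in 62B, against 10.91 in 62A and 11.15 in 62C, which is 3.53-fold lower (−1.82 ± 0.09, limma adjusted p = 0.00075). Its probe set can also hybridise to related transporters, so the value may include them. HXT2, a transporter induced by low glucose, read 7.46 and 7.49 in 62B, against 8.37 in 62A and 8.70 in 62C (−1.05 ± 0.11, limma adjusted p = 0.0042), and here the reference, at 8.50 and 8.34, was level with the sister strains. For HXT7 the reference was lower than 62B (8.70 and 8.05), and for HXT1 it was between the groups (6.94 and 7.28).

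Of 24 genes of glucose sensing and repression 5 were higher and 2 lower (median −0.03). Over all genes 12.4% were higher and 8.06% lower, so the lower count was near its share. The glucose-induced repressors MIG2 and MIG3 were higher in 62B. MIG2 read 6.85 and 6.94 in 62B, against 6.20 in 62A and 6.01 in 62C (0.79 ± 0.08, limma adjusted p = 0.0034), and MIG3 read 6.12 and 6.12, 5.41 and 5.51 (0.66 ± 0.05). MIG1, the main glucose repressor, was lower, at −0.23 ± 0.05. The related repressors NRG1 and NRG2 went opposite ways, at −0.36 ± 0.05 and 0.47 ± 0.06. RGT2, the sensor of high glucose, was higher by 0.30 ± 0.06, and the adaptor MTH1, with a difference of −0.48, did not pass (limma adjusted p = 0.0623).

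In the list of hexose kinases and glycolysis 8 of 21 genes were lower and 1 higher (median −0.09), against 8.06% and 12.4% over all genes. The lower ones were mostly the alternative isozymes. HXK1, the hexokinase repressed by glucose, read 8.03 and 8.34 in 62B, against 9.76 in 62A and 10.48 in 62C, a 3.82-fold difference (−1.93 ± 0.24, limma adjusted p = 0.0070). The glucokinase GLK1 was lower, at −1.03 ± 0.18 and its paralog EMI2 at −0.92 ± 0.13. TDH1, a glyceraldehyde-3-phosphate dehydrogenase isozyme of stationary-phase cells, read 9.67 and 9.71 in 62B against 11.29 in 62A and 11.71 in 62C (−1.81 ± 0.13, limma adjusted p = 0.0018). GPM2, a homolog of phosphoglycerate mutase, was lower, at −1.19 ± 0.09. PYK2 (−0.75 ± 0.06) and ENO1 (−0.44 ± 0.06), isozymes of pyruvate kinase and enolase, were lower too. The main isozymes TDH3, ENO2 and CDC19, named here after their values were seen, had differences of −0.08, −0.05 and −0.08 and did not pass. PGK1, also named after its value was seen, had a difference of −0.12 and did not pass. Without the first 62B array 3 genes of this list were lower, and 3 without the second.

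Of 8 galactose pathway genes 1 was higher and 2 were lower on glucose (median 0.04), against 12.4% higher and 8.06% lower over all genes, and the structural genes GAL1, GAL7 and GAL10 were not among them. GAL1, the galactokinase, read 5.62 and 6.13 in 62B, against 5.65 in 62A and 5.52 in 62C, so the 62B arrays overlapped with the others, and its difference of 0.29 did not pass. GAL7 and GAL10, the other structural genes, had differences of 0.16 and 0.02 and the repressor GAL80 −0.14, none of which passed. GAL3, the galactose sensor, was lower, at −0.17 ± 0.05 (limma adjusted p = 0.0497), a call lost after quantile normalization or when genes at background were left out. Its levels of 5.12 and 5.18 in 62B, and 5.33 in both other strains, were close to the background level of 5.07. The phosphoglucomutases, which link galactose use to glycolysis and to glycogen, differed in opposite directions. PGM2, the major one, read 7.32 and 7.39 in 62B, against 8.53 in 62A and 9.06 in 62C, and was 2.71-fold lower (−1.44 ± 0.16, limma adjusted p = 0.0058), while the reference read 6.44 and 6.32. PGM1, the minor one, was higher in 62B (7.35 and 7.39) than in 62A (7.07) and 62C (7.02), by 0.32 ± 0.05 (limma adjusted p = 0.0109), and there the reference (7.29 and 7.45) was level with 62B. GAL4 was not analysed here.

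Of 24 genes of the Ras and protein kinase A pathway 1 was higher and 3 were lower (median 0.03), against 12.4% higher and 8.06% lower over all genes. RAS2, the major Ras protein gene, read 8.61 and 8.60 in 62B, against 8.86 in 62A and 9.06 in 62C (−0.36 ± 0.07, limma adjusted p = 0.0276), and the reference, at 8.64 and 8.70, was close to 62B. RAS1 read 7.00 and 7.03, 7.18 and 7.19 (−0.17 ± 0.04, limma adjusted p = 0.0427), with the reference above all at 7.43 and 7.51. CYR1, the adenylate cyclase, had a difference of −0.04 ± 0.06 and did not pass. SCH9, a kinase that acts in parallel to protein kinase A, was higher by 0.43 ± 0.05. GIS1, a transcription factor of nutrient-limited cells, was lower, at −0.32 ± 0.06.

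Stress-induced genes and reserve carbohydrate genes were often lower in 62B. Of 34 measured stress genes of the type activated by Msn2 and Msn4, 23 were lower and 0 higher (median −0.60), and of 24 genes of glycogen and trehalose metabolism 12 were lower and 2 higher (median −0.45). Over all genes 8.06% were lower and 12.4% higher. Because bulk RNA was measured, fewer cells with these transcripts and less RNA per cell cannot be told apart. Among the stress genes, 7 of 9 genes for heat shock and membrane proteins were lower, and 3 of 7 antioxidant genes. SOL4, a homolog of a pentose phosphate enzyme, was lower, at −1.54 ± 0.18. TFS1, an inhibitor of carboxypeptidase Y, was lower, at −0.98 ± 0.19. YGP1, a secreted glycoprotein gene of starved cells, read 8.44 and 8.38 in 62B, against 9.05 in 62A and 9.64 in 62C, with the reference far below at 6.56 and 6.28. CTT1, the cytosolic catalase, had a smaller difference of −0.32 ± 0.06.

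Glycogen synthesis and breakdown genes were lower together. Among synthesis genes these were the synthases GSY1 (−1.24 ± 0.13) and GSY2 (−0.70 ± 0.14), the branching enzyme GLC3 (−1.01 ± 0.16), PGM2, and UGP1, which makes UDP-glucose (−0.60 ± 0.13). GSY1, for example, read 6.47 and 6.55 in 62B, against 7.54 in 62A and 7.97 in 62C. Of the breakdown genes, the debranching enzyme GDB1 (−1.05 ± 0.15) was lower with GPH1. PCL10, a cyclin that directs the inhibition of glycogen synthase, was higher by 0.43 ± 0.05. The trehalose synthase subunits TPS1 (−0.66 ± 0.16), TPS2 (−0.66 ± 0.14) and TSL1 (−0.91 ± 0.17) and the trehalase NTH1 (−0.40 ± 0.08) were lower, which makes 4 of 7 trehalose genes. All 7 had differences below 0.

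The levels of these 2 groups were graded, with 62C highest and 62A next. In all 23 lower stress genes and all 12 lower reserve genes 62A lay between 62B and 62C. The reference lay beyond 62B, that is lower still, in 20 of the 23 and in all 12. As these genes were picked for being lower in 62B, 62B was then necessarily the evolved strain nearest to the reference. Over all genes the SD of the log2 difference from a reference array was 0.249 and 0.278 for 62A. It was 0.254 to 0.278 for the 62B arrays, and 0.332 and 0.366 for 62C. The calls of stress and reserve genes were sensitive to the arrays used. Of the stress genes 1 was lower without the first 62B array, 1 without the second, 32 without 62A, and 26 without 62C, where 1 was also higher. At an unadjusted p under 0.05 the stress genes lower without the first and the second 62B array numbered 22 and 24. Of the reserve genes the limma counts were 0 (14 at an unadjusted p under 0.05), 1, 19 and 16, with 3 higher in each of the last cases.

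Many mating genes were lower in 62B. Over 4 lists of 48 measured genes 26 were lower, against 8.06% over all genes, and 1 was higher (median −0.22). The list of a-cell genes led, with 6 of 8 lower (median −0.61). MFA1, one of 2 genes for the a-factor precursor, read 8.36 and 8.48 in 62B, against 10.31 in 62A and 10.46 in 62C, and 9.92 and 10.08 in the reference. It was 3.90-fold lower (−1.97 ± 0.07, limma adjusted p = 0.00035), and 62B lay below all other arrays of the series. MFA2, the other a-factor gene, was lower, at −0.78 ± 0.08. AGA2, the binding subunit of the a-agglutinin, read 7.50 and 7.66 in 62B, against 8.45 in 62A and 8.67 in 62C (−0.98 ± 0.09, limma adjusted p = 0.0033). BAR1, the protease that degrades alpha-factor, was lower, at −0.87 ± 0.05, the alpha-factor receptor STE2 at −0.44 ± 0.07 and the a-factor exporter STE6 at −0.40 ± 0.05.

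Downstream of the receptor, all 3 subunits of the pheromone G protein were lower: STE4 at −0.53 ± 0.05, GPA1 at −0.29 ± 0.05 and STE18 at −0.23 ± 0.04. In the list of haploid signalling genes 6 of 15 were lower, among them the cell cycle arrest factor FAR1 (−0.29 ± 0.05) and the kinase FUS3 (−0.27 ± 0.04), and RDH54, a recombination gene, was higher (0.40 ± 0.05). STE5, STE20, STE11, STE7 and STE12, the scaffold, the kinases and the transcription factor, did not pass. Of the 20 genes induced by pheromone 11 were lower and 0 higher (median −0.18). FUS1, a membrane protein gene of cell fusion, read 5.50 and 5.35 in 62B against 7.18 in 62A, 7.10 in 62C, and 7.22 and 7.18 in the reference. It was 3.29-fold lower (−1.72 ± 0.07, limma adjusted p = 0.00038). AGA1, the anchor of the agglutinin, was lower, at −0.82 ± 0.04, PRM2 at −0.63 ± 0.07, SST2, which switches the G protein off, at −0.58 ± 0.05, and the nuclear fusion regulator KAR4 at −0.50 ± 0.05.

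The genes characteristic of alpha cells were near background on all arrays, and 3 of 5 were lower in 62B. STE3, the a-factor receptor, read 5.08 and 5.14 in 62B and 5.73 and 5.91 in 62A and 62C, against a background of 5.07 (−0.71 ± 0.07, limma adjusted p = 0.0037). AFB1 and MF(ALPHA)1, the latter an alpha-factor precursor gene, were lower, at −0.54 ± 0.06 and −0.36 ± 0.06. Calls of lower levels in 62B thus included a-cell genes and, near background, alpha-cell genes, of which 1 had a difference above 0. Of the 26 lower mating genes, the reference mean lay beyond 62A and 62C in 15, between the groups but nearer to 62A and 62C in 10, and beyond 62B in 1 (STE18), so that in most of these genes 62B lay below the sister strains and the reference alike. By the test 4 of the 48 genes were lower without the first 62B array, 6 without the second, 31 without 62A and 30 without 62C. The labels do not give the mating type or ploidy of the evolved strains.

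**Figure D4:**
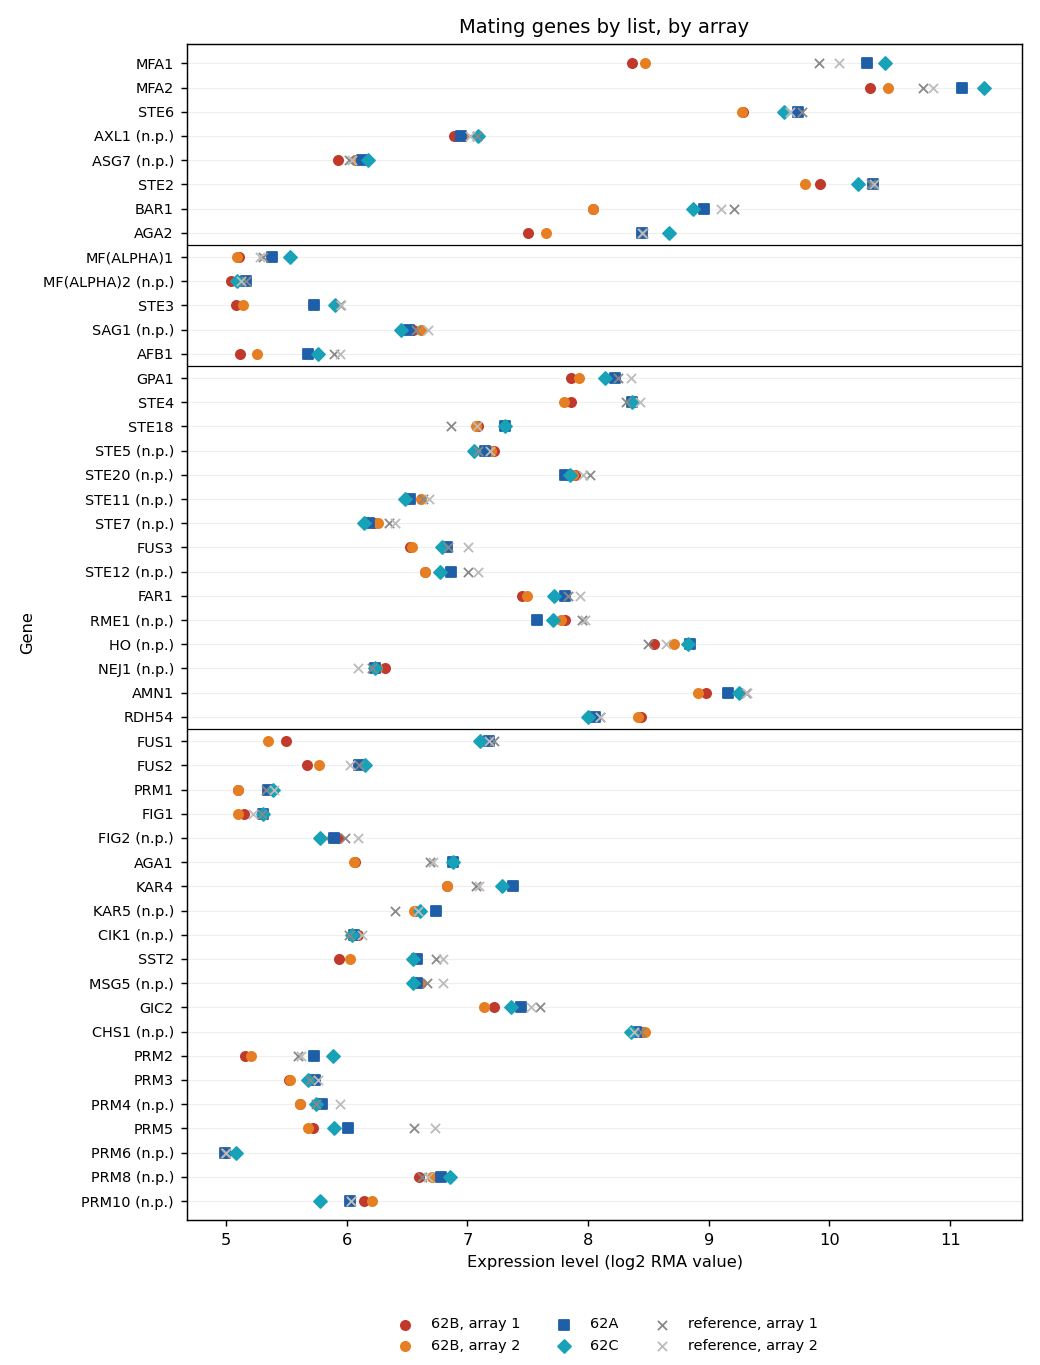
Log2 RMA level of 48 mating genes, 1 point per array, with lines between the a-specific, alpha-specific, haploid signalling and pheromone-induced lists from top to bottom. Genes marked n.p. did not pass limma's test; in MFA1, AGA2, BAR1, STE3, FUS1 and SST2 both 62B circles lie to the left of all other arrays, including the reference crosses.

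Transcripts of the retrotransposon Ty1 were measured by few probe sets. YAR010C, a Ty1 Gag open reading frame, read 9.11 and 9.15 in 62B, 10.39 in 62A, 10.69 in 62C, and 10.86 and 11.05 in the reference (−1.41 ± 0.10, limma adjusted p = 0.0016). YAR009C, the Gag-Pol frame beside it, was lower, at −0.83 ± 0.12. Both probe sets can hybridise to other copies of the element, and the third measured frame did not pass.

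Several NAD synthesis genes were lower in 62B, mainly those of the kynurenine route, by which NAD is made from tryptophan. Of 16 genes 7 were lower, against 8.06% over all genes, and 0 higher (median −0.15), and 4 of the 6 kynurenine genes were among them. BNA5, the kynureninase, read 6.25 and 6.20 in 62B, 7.54 in 62A, 7.61 in 62C, and 7.63 and 7.59 in the reference, a 2.55-fold difference (−1.35 ± 0.05, limma adjusted p = 0.00035). BNA2, the dioxygenase that opens the route, read 5.87 and 5.88 in 62B, against 6.93 in 62A and 7.14 in 62C (−1.16 ± 0.08, limma adjusted p = 0.0013). BNA1, which makes quinolinic acid, was lower, at −0.96 ± 0.06 and BNA6 at −0.39 ± 0.05. The nicotinic acid permease TNA1 was lower, at −0.57 ± 0.05 and the salvage enzyme NPT1 at −0.29 ± 0.04. PNC1, the nicotinamidase, was lower, at −0.80 ± 0.18 but is also a member of the stress list, and it was the only one of the 7 for which the reference (8.34 and 8.13) lay below 62B. For BNA1 the reference lay between the groups, near 62A and 62C, and for the other 5 it lay above them. Without the first 62B array 3 genes of the list were lower, and 3 without the second.

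SSP1, a gene that normally acts in sporulation, was another gene with one of the smallest p-values. It read 5.39 and 5.45 in 62B, 6.99 in 62A, 7.05 in 62C, and 6.77 and 6.81 in the reference, which is 3.02-fold lower in 62B (−1.59 ± 0.05, limma adjusted p = 0.00035). SPR3, a sporulation septin gene, was lower, at −0.60 ± 0.05. The whole list of 21 sporulation and meiosis genes did not lean one way, with 4 higher and 3 lower (median −0.01). Over all genes 12.4% were higher and 8.06% lower. UME6, a repressor of early meiotic genes, was among those higher (0.43 ± 0.05).

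Calls in the mitochondrial lists were mostly downward, where 8.06% of all genes were lower and 12.4% higher. Of 17 ATP synthase genes 8 were lower and 0 higher, and all 17 differences were below 0 (median −0.35). STF2 (−0.84 ± 0.11) and INH1 (−0.55 ± 0.12), which regulate the enzyme, had the largest differences, followed by the subunit genes ATP15 (−0.40 ± 0.09) and ATP20 (−0.38 ± 0.08). Of 68 mitochondrial ribosomal protein genes 19 were lower (29 with median centring) and 1 higher (median −0.18), for example MRPL40 (−0.41 ± 0.09) and MRP17 (−0.41 ± 0.09). The respiratory chain had 4 of 24 genes lower and 1 higher (median −0.16), among them CYC7, the lactate dehydrogenase CYB2 (−0.67 ± 0.10) and COX6 (−0.31 ± 0.06). The TCA cycle had 2 of 17 lower (median −0.18), a count not far from the share over all genes, but all 17 differences were below 0. The heme enzyme HEM15, ferrochelatase, was lower, at −0.71 ± 0.07. In all 8 ATP synthase and all 19 mitochondrial ribosomal genes called lower, 62A lay between 62B and 62C. Without the first or second 62B array limma called 0 genes of either list, where 7 or 9 ATP synthase genes and 14 or 29 ribosomal genes were lower at an unadjusted p under 0.05. Without 62A 17 of the ATP synthase and 59 of the ribosomal genes were lower.

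Genes for making ribosomes were called higher about as often as all genes. Of 93 ribosome biogenesis genes 11 were higher, near the 12.4% over all genes, and 0 were lower, against 8.06% over all genes. Their median was 0.17, with 88 differences above 0. ENP2 (0.36 ± 0.09), RRP5 (0.36 ± 0.09) and UTP13 (0.32 ± 0.08), of the small subunit processome, and NSA1 (0.31 ± 0.06), of large subunit assembly, led them. After quantile normalization 4 of the 93 and with median centring 6 were higher, and ENP2 and RRP5 lost their call in the first of these. Without the first or second 62B array limma called 0 of the 93 (9 or 10 higher at an unadjusted p under 0.05), and without 62A 74 were higher. RNA polymerases I and III had 3 of 23 higher (median 0.18), also near the 12.4% over all genes. Of 126 cytosolic ribosomal protein genes 0 passed in limma (1 in each direction at an unadjusted p under 0.05), and their differences ran from −0.21 to 0.17 (median −0.01). Of 33 proteasome genes 7 were lower (median −0.11), including the core subunits PUP1 (−0.33 ± 0.05) and SCL1 (−0.32 ± 0.06). For all 7 the reference mean lay above those of both groups. Without the first or second 62B array limma called 0 of the 33 (4 lower at an unadjusted p under 0.05 in each case), and without 62A 15 were lower.

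Of 77 amino acid synthesis genes in 7 lists 12 were higher and 3 lower (median 0.11), shares near those over all genes, of which 12.4% were higher and 8.06% lower. ARG1, argininosuccinate synthetase, read 10.51 and 10.44 in 62B, against 9.91 in 62A and 9.69 in 62C (0.68 ± 0.08, limma adjusted p = 0.0065), with a reference mean of 10.74. LEU9 of leucine synthesis (0.58 ± 0.12), ARO9, an aromatic aminotransferase (0.45 ± 0.06), and SER1 of serine synthesis (0.40 ± 0.06) were also higher. LYS14, the activator of lysine genes, was lower (−0.41 ± 0.05). Of 30 methionine and sulfur genes 7 were higher and 0 lower (median 0.13), led by STR3 (0.76 ± 0.07), the methionine permease MUP1 (0.59 ± 0.14) and the low-affinity permease MUP3 (0.43 ± 0.04). Purine and one-carbon genes had 7 of 21 higher and 2 lower (median 0.09), but 3 higher after quantile normalization and 4 with median centring. IMD4 (0.65 ± 0.08), an IMP dehydrogenase, was higher, and its paralog IMD2, whose probe set can hybridise to relatives, was lower (−0.40 ± 0.06). Without the first or second 62B array limma called 0 of the 77 amino acid genes (12 or 10 higher and 1 or 2 lower at an unadjusted p under 0.05) and 0 of the 21 purine and one-carbon genes (4 or 6 higher and 2 lower), and without 62A 41 of the 77 were higher and 6 lower.

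Nitrogen source genes were called in both directions. Under nitrogen catabolite repression, the control that silences genes for poor nitrogen sources, 3 of 23 genes were higher and 7 lower (median 0.01). Over all genes 12.4% were higher and 8.06% lower, so the higher count was near its share. The ammonium permeases MEP2 and MEP3 (0.53 ± 0.05) and the arginase CAR1 (0.56 ± 0.06) were higher. PUT4, the proline permease, read 6.28 and 6.49 in 62B, against 7.54 in 62A and 7.58 in 62C (−1.17 ± 0.08, limma adjusted p = 0.0012), with a reference mean of 6.37. The proline oxidase PUT1 (−0.40 ± 0.07) and the allantoin genes DAL4 (−0.45 ± 0.05) and DAL1 (−0.31 ± 0.04) were lower. Of the amino acid permeases, 4 of 20 were higher and 2 lower (median 0.08), and SAM3, which carries S-adenosylmethionine, was the highest with 0.70 ± 0.11.

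Cell wall genes were called in both directions, with 6 of 40 higher and 7 lower (median −0.02). Over all genes 12.4% were higher and 8.06% lower, so the higher count was near its share and the lower count above it. Beside HPF1, DSE4, a glucanase gene of daughter cells, was higher (0.62 ± 0.09). FLO11, the flocculin of filamentous growth, read 5.65 and 5.67 in 62B, against 6.44 in 62A and 6.84 in 62C (−0.98 ± 0.13, limma adjusted p = 0.0077). GSC2, the alternative glucan synthase, was lower (−0.90 ± 0.06). Of 11 copper and zinc genes 5 were higher (3 after quantile normalization) and 0 lower (median 0.29), among them the membrane protein gene IZH1 (0.50 ± 0.06) and the vacuolar zinc exporter ZRT3 (0.46 ± 0.07). ZAP1, the zinc-responsive activator, was itself higher (0.29 ± 0.07). Of 10 histone genes 0 passed in limma (1 in each direction at an unadjusted p under 0.05).

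**Figure D5:**
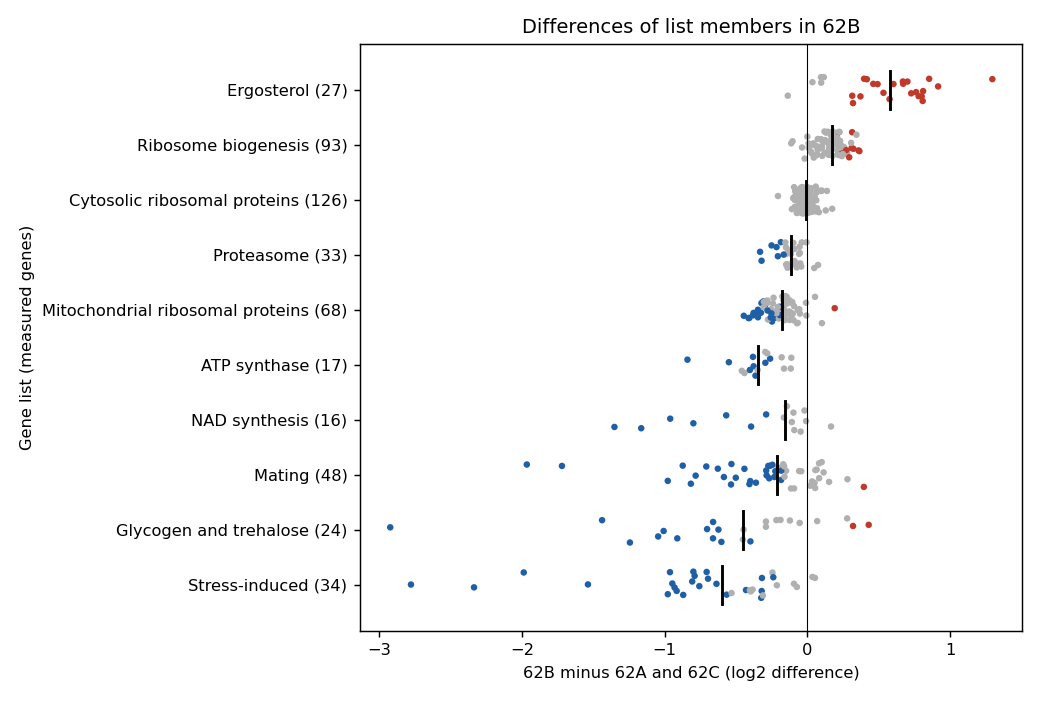
Log2 difference of 62B from 62A and 62C for the members of 10 groups of genes, 1 point per gene (red higher and blue lower by limma's test, grey not passed), with a black bar at the group's median and the number of measured genes in parentheses. Ergosterol genes stand to the right of 0 (median 0.57), cytosolic ribosomal proteins at 0, and stress-induced genes farthest to the left (median −0.60).

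Where the unevolved reference lay differed between the upward and downward calls. Of the 10 genes at least 2-fold higher in 62B, the reference mean was between the groups but nearer to 62A and 62C in 9 and beyond them in 1 (HPF1). Of the 33 genes at least 2-fold lower it was beyond 62B in 20, between and nearer to 62B in 2, between and nearer to 62A and 62C in 5, and beyond these in 6. Large upward differences thus set 62B apart from the reference as well, and most large downward differences set 62A and 62C apart from it. Over all 677 higher genes the reference lay beyond 62B in 117, between and nearer to 62B in 197, between and nearer to 62A and 62C in 222 and beyond these in 141. For the 439 lower genes these counts were 113, 82, 97 and 147.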

How the data were processed

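The deposited values are on the log2 scale. The authors obtained them through RMA in affy, as the submitters' processing notes name these tools. The sources used here give neither tool versions nor the arrays that were normalized together. Values were not rescaled. Of 10928 probe sets, 5498 were annotated to 1 S. cerevisiae gene and 1746 to another yeast species. For 47 genes with several probe sets the one with the highest mean was kept (18 of these had probe sets of opposite sign), which gave 5449 genes. For 109 the kept probe set can hybridise to related genes. Symbols were updated through the RefSeq gene table, which changed 12. The 95th percentile of the other species' probe sets, 5.07, served as background, and 96.8% to 97.3% of genes exceeded it on every array. Precision is limited by the number of arrays.

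The 2 arrays of 62B were compared with those of 62A and 62C by limma 3.58.1 in R 4.3.3 (lmFit, eBayes, 2 residual degrees of freedom), with Benjamini-Hochberg adjustment over all 5449 genes and a threshold of 0.05. Errors are standard errors of that fit. On simulated arrays of 5449 genes it recovered 100% of 67 genes changed by 0.5, 67 by 1 and 66 by 2. The whole run held 13 false calls. All 4 simulated arrays were drawn independently, with the same fitted variance for a gene in both groups. In the data the 62B pair may be technical, while 62A and 62C are different strains. The simulation therefore cannot say how reliable the calls are. Groups of genes came from 54 lists, of which 1149 of 1200 entries were measured. They are described by counts and medians, without a test of the list. The comparison, the lists and the genes named were chosen with earlier results of these data known. Named are the 12 largest called differences per direction above background whose 62B arrays both lay on the same side of 62A and 62C. Also named are up to 4 called members per list and direction or otherwise the member with the largest difference, and RAS1, RAS2, CYR1, ERG5, PGM1, PGM2 and 5 GAL genes. Genes outside this rule are given to complete a complex or a pathway step, or to set isozymes side by side, and were chosen after their values were seen. Alternatives changed the model, the normalization, the variance prior, the filter on dim genes, the probe set rule and the arrays left out.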

Additional observations from a re-analysis of the deposited data

How the results depend on the processing

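The counts of called genes depended on which arrays supplied the spread. With 1 term per strain over all 6 arrays 1104 genes were higher and 751 lower, and with the same model over the 4 evolved arrays 1504 and 996, because the difference between 62A and 62C then does not count as error. With each strain as 1 sample 25 were higher and 26 lower, of which 9 and 13 by at least 2-fold. Leaving out 1 array gave 23 to 1478 higher genes and 28 to 1000 lower, and 9 to 14 and 13 to 57 past 2-fold. Quantile normalization (540 and 494), median centring (518 and 549), both other variance priors, the filter on dim genes and both probe set rules kept each count within 1.5 times. None of the 227 named genes changed sign in a call. Of these, 24 lost their call after quantile normalization, 17 with median centring, 7 with an intensity trend, 7 with robust estimation, 191 with each strain as 1 sample, and 192 or 187 without the first or second 62B array. Of the 54 list medians, 50 moved by less than the spread after quantile normalization and 47 with median centring. Of the 12 leading genes in each direction, 9 of those higher passed without either 62B array, and of those lower 5 and 6. No paired analysis was possible because the labels pair no array of 62B with an array of 62A or 62C.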

Other observations

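With both directions pooled, called genes were not concentrated on a chromosome. The median difference per chromosome ran from −0.03 on chromosome VI to 0.04 on chromosomes III and X, and the share of genes called ran from 18.0% to 23.6%. Chromosome VI leaned downward, with 7 genes higher and 19 lower of 117, against 12.4% higher and 8.06% lower over all genes. Per arm the share called ran from 13.3% (left arm of VIII) to 28.9% (right arm of IX, 3 higher and 8 lower of 38). Runs of 3 or more neighbouring tested genes called in the same direction numbered 15, of which 14 had 3 genes. The longest, with 4 genes, was the allantoin cluster on chromosome IX, where DAL1, DAL4, DAL2 and DCG1 were all lower in 62B, by 0.26 to 0.69 on the log2 scale.

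The counts in this paragraph stand against 12.4% higher and 8.06% lower over all genes. Vitamin genes for thiamine and vitamin B6 had 5 of 16 lower and 0 higher (median −0.07), among them SNZ3 (−0.62) and SNO3 (−0.60), whose probe sets can hybridise to relatives. Peroxisomal and fatty acid oxidation genes had 6 of 19 higher and 3 lower (median 0.04). PEX11, which drives peroxisome division, was higher by 0.47, and PXA1, a subunit of the fatty acid importer, was lower, at −0.52. Its partner PXA2, in the opposite direction, was higher by 0.20. Phosphate genes had 7 of 23 higher (4 after quantile normalization or median centring) and 2 lower (median 0.00), with the vacuolar phosphatase PHO8 at 0.44 and the sodium-coupled transporter PHO89 at −0.37. Drug efflux genes had 3 of 25 higher (1 after quantile normalization) and 3 lower, and the higher count was near the share over all genes. Among them were TPO1, a polyamine exporter, at 0.41 and PDR15 at −0.69. Cell cycle genes had 2 of 21 in each direction, near the shares over all genes. After quantile normalization or median centring 0 were higher in limma (3 at an unadjusted p under 0.05 in each). RNR1, a ribonucleotide reductase gene, was at −0.34 and the cyclin CLB2 at 0.25.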
